A study of Mus musculus with 17 samples.

Results

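RUNX1 and CHD7 binding was followed at 10 semaphorin genes, Sema3a, Sema3c, Sema3e, Sema4a, Sema4b, Sema4c, Sema4d, Sema6b, Sema6d and Sema7a, in a mouse blood progenitor line. A site is a stretch of overlapping peaks from any of 16 peak lists, and a semaphorin site is one that touches a member's gene body or the 20 kb on either side. There were 58 such sites of 90323 in all. The genes were chosen by name, as a family linked to CHD7 in neural crest, and with the strong site in Sema4d already known from these lists. The strength of that site is therefore a description. No neural crest sample was analysed and no RNA was measured, so neither the neural crest label nor expression of the genes was checked.

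The cells were 416B, a mouse myeloid progenitor line, and each condition had 2 libraries per antibody. CM +Dox cells carried a type A Cbfb-Myh11 cDNA (CM), the fusion made by inversion of chromosome 16 in acute myeloid leukaemia, joined through an F2A element to mCherry behind a tetracycline responsive element. They were given doxycycline (1 ug/ml) for 24 hours. CM -Dox cells carried the same construct without the drug. Control +Dox and Control -Dox cells carried a version that lacks CM, named Control-ATG, with and without the same dose. All 4 groups also carried the tetracycline silencer and transactivator and blasticidin resistance. The cells were clones grown from sorted single cells, and the labels do not say how many clones were used or whether replicates came from separate cultures. The spread between replicates may thus be technical. An IgG sample was not analysed here.

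Semaphorins are ligands that steer migrating cells and growing axons, and several also act between immune cells. Class 3 members are secreted and signal through neuropilin and plexin receptors, class 4 and class 6 members span the membrane, and the class 7 member is held by a lipid anchor. RUNX1 is a DNA-binding factor needed to form and mature blood cells, and the fusion protein binds it through the part taken from its partner Cbfb. CHD7 is a chromatin remodeller, best known from the developmental disorder CHARGE syndrome, in which neural crest derivatives are affected.

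Of 19 annotated member promoters, 3 lay under a site. Their sequences are shown because they are the places where a call met a member's own annotated start. Each is the 250 bases before an annotated start, from RefSeq (GRCm38.p6), on the gene's strand and from 5′ to 3′. Annotated starts need not include the upstream end of a gene body. At Sema3a and Sema4d all of them lay inside the gene body, away from that end. Capitals mark AGGAAG or its reverse complement CTTCCT, which hold GGAA, the core letters bound by ETS factors. GGAA in other surroundings was not marked or counted.

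Sema4d, chr13:51756684-51756933, minus strand: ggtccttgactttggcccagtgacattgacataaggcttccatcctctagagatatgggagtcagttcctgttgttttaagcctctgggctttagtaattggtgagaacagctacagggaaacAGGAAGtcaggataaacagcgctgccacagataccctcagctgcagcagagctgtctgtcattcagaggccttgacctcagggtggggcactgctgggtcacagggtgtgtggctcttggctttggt

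Sema4b, chr7:80198338-80198587, plus strand: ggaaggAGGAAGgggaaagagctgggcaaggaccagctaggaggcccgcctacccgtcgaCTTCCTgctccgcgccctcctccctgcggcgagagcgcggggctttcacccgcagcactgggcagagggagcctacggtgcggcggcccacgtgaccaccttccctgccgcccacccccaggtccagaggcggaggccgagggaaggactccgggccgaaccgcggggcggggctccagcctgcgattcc

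Sema6b, chr17:56133853-56134102, minus strand: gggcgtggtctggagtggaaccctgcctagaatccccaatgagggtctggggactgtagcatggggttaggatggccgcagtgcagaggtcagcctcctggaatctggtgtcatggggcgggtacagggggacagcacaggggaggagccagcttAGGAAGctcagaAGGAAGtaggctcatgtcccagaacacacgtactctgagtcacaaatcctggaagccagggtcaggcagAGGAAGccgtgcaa

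The RUNX core letters TGTGGT or TGCGGT were in none of these 3 windows on either strand, so no match overlapped an ETS match. They were in 5 of the 19 member windows and in 17.7% of 21262 promoter windows of the genome. The marked ETS letters, AGGAAG or CTTCCT, were in 7 of the 19, against 28.5% of all windows. Counted from the start, with -1 the last base before it, the match in the Sema4d window began at -127. Those in the Sema4b window began at -244 and -190, and those in the Sema6b window at -95, -83 and -14.

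The peak lists behind these sites differ in length and in where they stop. RUNX1 lists held 8140 to 16163 peaks and CHD7 lists 16323 to 37698. The p-value threshold in the authors' peak names was 1e-09 for 5 and 1e-07 for 3 of the RUNX1 lists, and 0.01 for each CHD7 list. Read depth is not given in the sources used here. CM +Dox RUNX1 lists were the shortest of that antibody, with 8140 and 9710 peaks. Peaks in the gene body of Cbfb, which the introduced cDNA can add, were called at 4 sites in each CM +Dox RUNX1 library and at 4 and 2 sites in the CM -Dox libraries, but at 0 in each control RUNX1 library. The first Control -Dox RUNX1 library has peak names with a +Dox tag, which its label does not bear out, and RUNX1 counts that rest on it are also given without it. The tag was not used throughout. It is absent from replicate 2 of the CM +Dox and Control +Dox RUNX1 libraries and from every +Dox CHD7 list. Each peak was placed by the percentile rank of its deposited score within its own list, with 100 the highest. Ranks in lists of different length do not show a change in binding. Nor do ranks compare strength between antibodies. At the most widely called Sema3a site in CM -Dox replicate 2, CHD7 rank 90.1 was a score of 7.55 and RUNX1 rank 89.0 a score of 97.4. Scores are −log10 p-values.

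Sites were spread unevenly over the family. RUNX1 was called mostly in the windows of the class 4 genes, and CHD7 was called in at least 1 library in every window. With both replicates of at least 1 condition required, CHD7 was called at 5 of the 10 genes, beside 52.1% of all protein-coding genes. The share of all genes with a CHD7 call in any library was not computed. Of the 24 sites at the 4 class 4 genes, 19 had a RUNX1 call, against 1 of 23 at the 3 class 3 genes, 3 of 10 at the class 6 genes and 1 of 1 at Sema7a. A CHD7 call was present at 17 of the 24 class 4 sites, at all 23 class 3 sites, at 9 of 10 class 6 sites and at the Sema7a site. Over all sites of the genome, RUNX1 was called at 23.2% and CHD7 at 93.8%. Some class 4 sites with a RUNX1 call lay over other genes, namely Slc25a44, Cib1, Gdpgp1, Ttll13, Ankrd39, Fam178b and Secisbp2. The class counts thus include sites of neighbouring genes. Genes differ in length, and per 100 kb of window the number of sites was 12.5 at Sema4b, 7.68 at Sema4c, 7.67 at Sema4a, 5.24 at Sema6b, 3.47 at Sema3a and 3.37 at Sema4d. It was 1.58 at Sema7a, 1.13 at Sema6d, 1.11 at Sema3e and 1.02 at Sema3c.

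**Figure D1:**
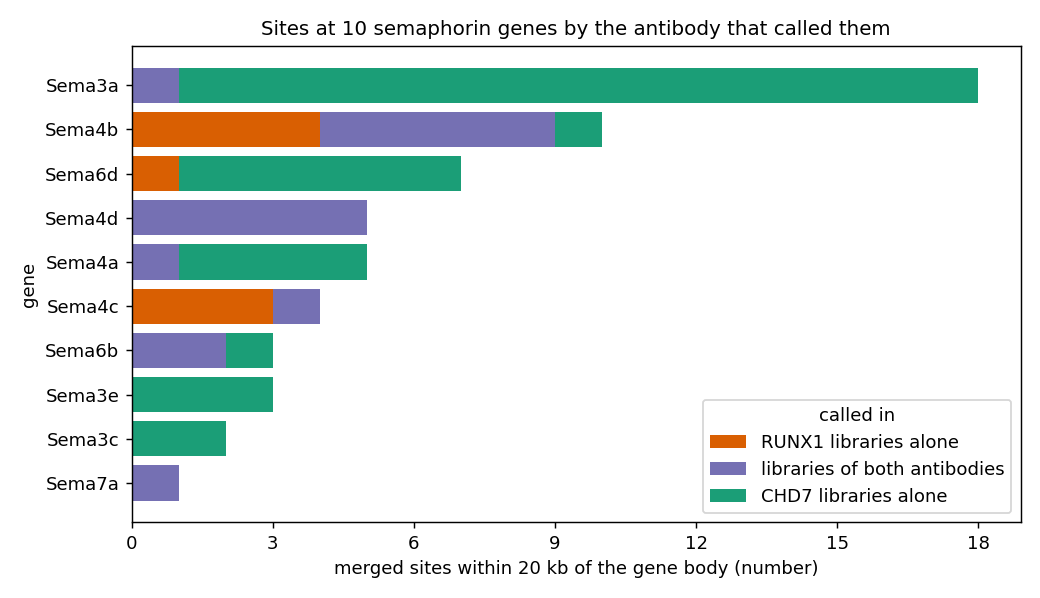
The bars give the number of merged sites within 20 kb of each gene body, split by whether RUNX1 libraries alone, libraries of both antibodies or CHD7 libraries alone called them. Sema3a holds 18 sites, 17 of them called with CHD7 alone, while all 5 sites at Sema4d were called with both antibodies.

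At least 1 library of each antibody called 16 of the 58 semaphorin sites (27.6%), where the share over all sites was 17.1%. Such a site is a merged stretch, and the peaks of the 2 antibodies within it need not lie close. Of the 24 sites with RUNX1, CHD7 was also called at 16 (66.7%), beside 73.5% of all RUNX1 sites. Among the 14 sites called in 4 or more RUNX1 libraries it was called at 11 (78.6%), beside 80.1% of all. RUNX1 was called at 24 of 58 sites (41.4%), against 23.2% of all sites, and CHD7 at 50 (86.2%), against 93.8%. Many sites rested on 1 library, 26 of 58 (44.8%), while 49575 of all sites (54.9%) did. Within an antibody, 7 of 24 RUNX1 sites (29.2%) rested on a single RUNX1 library, beside 18.4% of all such sites, and 28 of 50 CHD7 sites (56.0%) on a single CHD7 library, beside 59.4%. Calls in all 8 libraries of the antibody were made at 4 of 24 RUNX1 sites (16.7%), beside 22.9%, and at 2 of 50 CHD7 sites, beside 5.73%. Of the 26 sites that rested on 1 library, 24 came from CHD7 lists, and 9 each from CM +Dox CHD7 replicate 1 and Control +Dox CHD7 replicate 2. Their median rank was 24.7, with a range from 4.99 to 84.3. Sites were 200 to 1341 bp wide with a median of 343.5 bp, close to the 339 bp of all sites. In position, 43 lay in a gene body, 8 upstream and 7 downstream. Exon, intron and UTR positions were not used here.

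**Figure D2:**
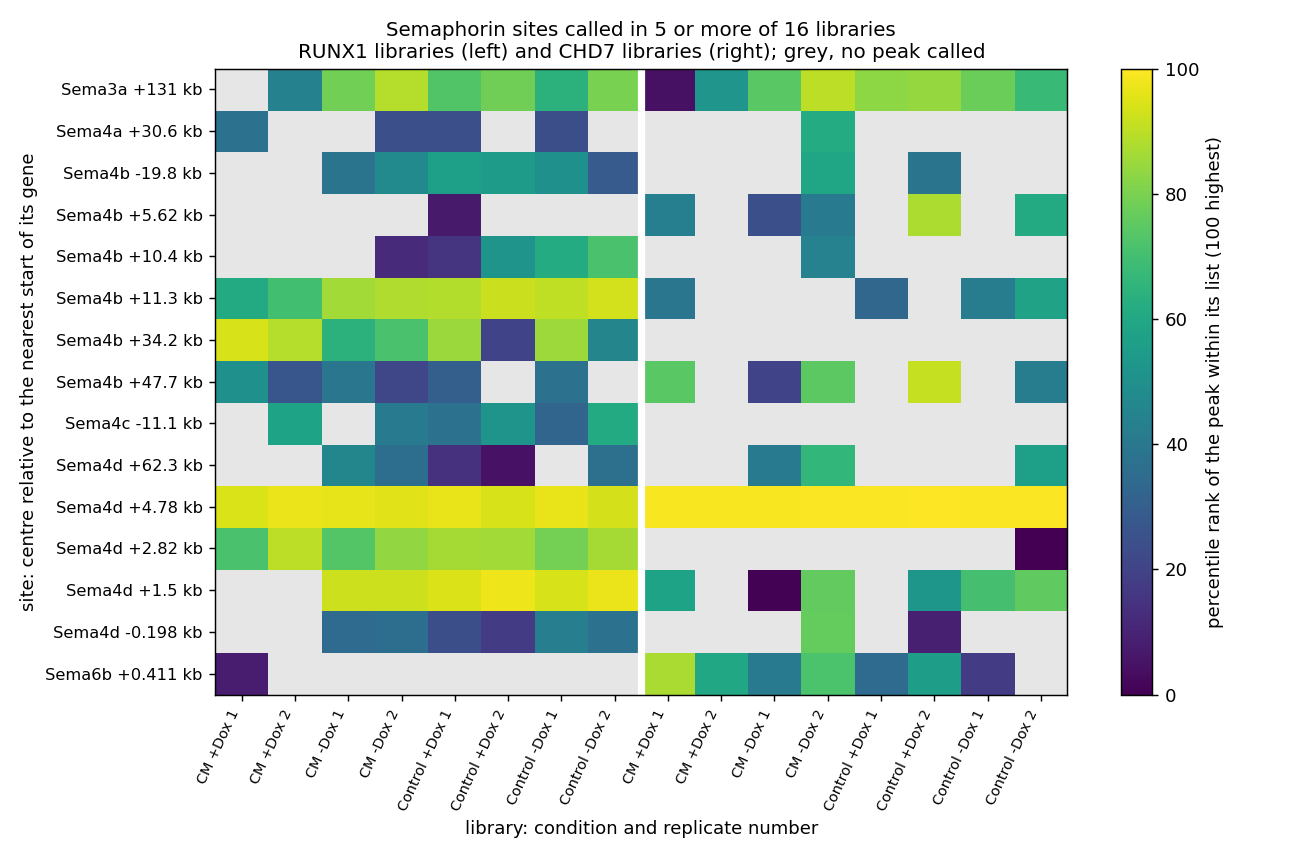
Each row is 1 of the 15 semaphorin sites called in 5 or more libraries, named by gene and by the distance of its centre from the gene's nearest start, and each column is a library. Colour is the percentile rank of the peak in its own list and grey means no call. The Sema4d site at +4.78 kb is called in all 16 libraries with ranks of at least 93.7, while the Sema4d site at +1.50 kb has no RUNX1 call in either CM +Dox library.

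Sema4d, known as CD100 in the immune system, is a transmembrane ligand of B-class plexins and of CD72 on B cells. It held the leading site of the family. Near that site lay another that every RUNX1 library without the induced fusion called, and neither CM +Dox RUNX1 library. The gene (chromosome 13, 51685529 to 51793678, minus strand) has 3 annotated starts, at 51739446, 51748810 and 51756683. All lie inside the gene body, and none was listed at its upstream end, 51793678. Its leading site spanned 51734193 to 51735135 in the gene body, centred 4.78 kb past the most downstream start.

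At the leading site every library of both antibodies had a peak. RUNX1 ranks were 94.3 and 97.2 in CM +Dox, 96.4 and 95.6 in CM -Dox, 96.7 and 94.0 in Control +Dox, and 96.8 and 93.7 in Control -Dox libraries. CHD7 ranks were 98.8 and 99.1 in CM +Dox, 99.2 and 99.5 in CM -Dox, 99.6 and 99.6 in Control +Dox, and 99.5 and 99.4 in Control -Dox libraries. All RUNX1 ranks were high and the conditions overlapped. With CHD7, both CM +Dox ranks lay below the other 6, by less than 1 percentile, in lists of unequal length. The mean rank was 95.6 ± 1.41 with RUNX1 and 99.3 ± 0.277 with CHD7 (SD, n = 8 libraries each). Counted from the top, the peak stood at place 390 of 33462 and 271 of 31688 in the CM +Dox CHD7 lists, against places 149 and 181 in CM -Dox, 71 and 120 in Control +Dox, and 86 and 132 in Control -Dox lists. In the RUNX1 lists it stood at place 464 of 8140 and 272 of 9710 in CM +Dox, 480 and 711 in CM -Dox, 457 and 752 in Control +Dox, and 446 and 875 in Control -Dox. Calls in all 16 libraries were made at 1 of the 58 semaphorin sites, this one, and at 1.89% of all sites. Among those 1703 sites it was the 7th by mean rank, the 40th by CHD7 rank alone and the 157th by RUNX1 rank alone. The CM +Dox CHD7 replicate 2 peak was 943 bp wide, and the other 15 peaks were 361 to 635 bp wide.

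**Figure D3:**
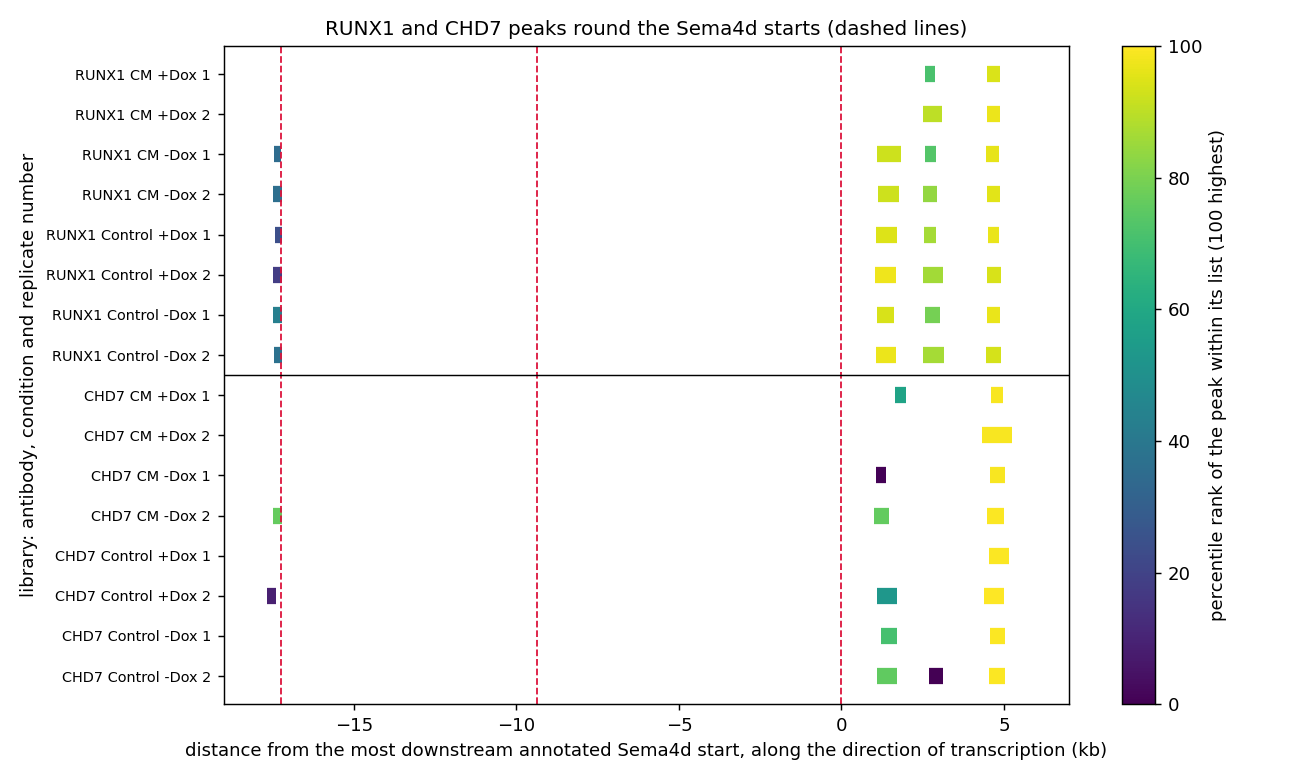
Each bar is a peak drawn to scale along the gene, with distance in kb from the most downstream annotated Sema4d start and dashed lines at the 3 starts. Rows are libraries and colour is the percentile rank within the list. Peaks at about +4.8 kb stand in every row. The RUNX1 peaks at about +1.5 kb and at the most upstream annotated start are missing from both CM +Dox rows.

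The neighbouring site at 51737458 to 51738438, centred 1.50 kb past the start, was lost with the induced fusion. Lost means here that a site was called in all 6 libraries without the fusion and in neither CM +Dox library. No RUNX1 peak was called there in CM +Dox replicates 1 and 2, against ranks of 92.5 and 92.4 in CM -Dox, 94.8 and 97.4 in Control +Dox, and 94.0 and 97.0 in Control -Dox libraries. In those 6 lists the peak stood high, from place 334 of 12603 to place 1233 of 16163. CHD7 was called there at rank 57.8 in CM +Dox replicate 1 and not in replicate 2. Its ranks were 0.424 and 76.0 in CM -Dox, 53.0 in Control +Dox replicate 2 with no call in replicate 1, and 70.5 and 75.7 in Control -Dox libraries. The CM +Dox CHD7 peak (51737458 to 51737804) lay at the edge of the site, farther into the gene than the other CHD7 peaks, which began at 51737750 or beyond. The gap between the lost and the leading site was 2.32 kb.

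Between them, at 51736301 to 51736946, lay a site called in all 8 RUNX1 libraries. Its RUNX1 ranks were 71.2 and 89.9 in CM +Dox, 73.1 and 83.6 in CM -Dox, 86.5 and 86.2 in Control +Dox, and 78.9 and 86.6 in Control -Dox libraries. The CM +Dox values spanned the whole range of the others. CHD7 was called there in Control -Dox replicate 2 alone, at the low rank of 0.268. It stood 511 bp from the lost site and 1165 bp from the leading site.

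The most upstream annotated start of Sema4d, whose promoter is printed above and which lies inside the gene body, carried a weaker lost site at 51756655 to 51757108. RUNX1 was not called in either CM +Dox library. Its ranks were 34.8 and 36.2 in CM -Dox, 23.9 and 17.6 in Control +Dox, and 42.9 and 37.3 in Control -Dox libraries. These ranks are low beside those of the lost site in the gene body, so the peaks stand nearer the end of their lists. CHD7 was called there in CM -Dox replicate 2 (rank 76.3) and Control +Dox replicate 2 (rank 8.94). The remaining Sema4d site, 8.15 kb downstream of the gene and inside Secisbp2 (51676891 to 51677382), had RUNX1 calls in 0 CM +Dox, 2 CM -Dox, 2 Control +Dox and 1 Control -Dox libraries, with ranks from 4.99 to 45.8. It lacked a call in the Control -Dox library with the mismatched tag, and without that library it too counts as lost. Of 21883 protein-coding genes, 375 had 2 or more lost RUNX1 sites within 20 kb, and 2585 (11.8%) had at least 1. Without that library these numbers were 393 and 2677 (12.2%).

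Sema4b encodes another transmembrane class 4 semaphorin. Its window held 10 sites and 9 of them had a RUNX1 call, the most of any member. Sites with 8 RUNX1 calls stood beside sites with none in CM +Dox cells. The gene lies at chromosome 7, 80186870 to 80226646, on the plus strand.

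The most widely called Sema4b site (80209485 to 80210272, in the gene body, 11.3 kb past the nearer start) had RUNX1 calls in all 8 libraries. Its RUNX1 ranks were 61.0 and 69.6 in CM +Dox, 86.1 and 88.2 in CM -Dox, 88.5 and 91.8 in Control +Dox, and 90.3 and 93.1 in Control -Dox libraries. Both CM +Dox ranks lay below the other 6, in lists that were shorter. CHD7 was called there at rank 39.3 in CM +Dox replicate 1, in neither CM -Dox library, at 32.9 in Control +Dox replicate 1, and at 42.2 and 57.7 in Control -Dox libraries. The adjoining site at 80208598 to 80209427 had no RUNX1 call in CM +Dox libraries, against ranks of 12.2 in CM -Dox replicate 2, 15.1 and 51.8 in Control +Dox, and 61.5 and 71.5 in Control -Dox libraries. It was absent from CM -Dox replicate 1, which kept it from counting as lost.

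The Sema4b site that counted as lost lay far upstream at 80166789 to 80167269, 19.6 kb from the gene and just inside the 20 kb limit. RUNX1 was called there in neither CM +Dox library, against ranks of 38.3 and 47.6 in CM -Dox, 56.3 and 55.1 in Control +Dox, and 50.3 and 28.8 in Control -Dox libraries. Its peaks were of middling rank in all 6 lists. CHD7 was called there in CM -Dox replicate 2 (rank 59.3) and Control +Dox replicate 2 (rank 38.5). A nearer upstream site (80177496 to 80177766) had RUNX1 calls in 0 CM +Dox, 2 CM -Dox, 1 Control +Dox and 1 Control -Dox libraries. The internal Sema4b promoter printed above had RUNX1 calls only in control cells. Its ranks were 22.8 in Control +Dox replicate 1, and 17.6 and 9.80 in Control -Dox libraries, and CHD7 was called in none.

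Downstream of Sema4b, sites of the window lay over other genes. The site at 80232529 to 80232996, over the starts of Cib1 and Gdpgp1, was called in all 8 RUNX1 libraries and by no CHD7 library. Its ranks were 94.1 and 89.1 in CM +Dox, 64.4 and 71.2 in CM -Dox, 85.0 and 20.1 in Control +Dox, and 85.5 and 45.4 in Control -Dox libraries. Here the CM +Dox ranks were the highest, and those of the control replicates lay far apart. The site at 80245729 to 80246762, over the start of Ttll13 and 19.1 kb from Sema4b, had RUNX1 calls in both CM +Dox libraries at ranks 50.2 and 26.8. Its other RUNX1 calls were at 39.2 and 21.4 in CM -Dox, 30.2 in Control +Dox replicate 1 and 37.4 in Control -Dox replicate 1. CHD7 was called there at rank 74.6 in CM +Dox replicate 1 and at 19.9 and 75.0 in CM -Dox. It was also called at 91.1 in Control +Dox replicate 2 and 42.3 in Control -Dox replicate 2. Just beyond the limit, 20.2 kb from Sema4d, a site at 51813918 to 51814278 had 6 RUNX1 calls, none of them in CM +Dox, and 1 CHD7 call. The next outside, 21.9 kb from Sema6b (56162233 to 56162564), had 6 RUNX1 calls, 2 of them in CM +Dox, and 0 CHD7 calls.

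Sema4c is a transmembrane ligand of Plxnb2, and Sema4a is one that costimulates T cells. Both had RUNX1 sites of low to middling rank. At Sema4c (chromosome 1, 36548639 to 36560699) the site with most calls lay 8.64 kb upstream in Fam178b (36569343 to 36569638) and was called with RUNX1 alone. Its ranks were 58.0 in CM +Dox replicate 2, 40.7 in CM -Dox replicate 2, 37.9 and 51.7 in Control +Dox, and 32.8 and 61.0 in Control -Dox libraries. A site in the gene body (36554608 to 36554869) ran the other way, with RUNX1 at ranks 15.8 and 44.1 in CM +Dox, no call in CM -Dox or Control +Dox, and 27.2 in Control -Dox replicate 2. That last call kept it from counting as gained. At Sema4a (chromosome 3, 88435959 to 88461182) the leading site lay 10.6 kb downstream in Slc25a44 (88424926 to 88425341). RUNX1 ranks there were 37.6 in CM +Dox replicate 1, 24.5 in CM -Dox replicate 2, 24.3 in Control +Dox replicate 1 and 23.9 in Control -Dox replicate 1. CHD7 was called there in CM -Dox replicate 2 at rank 61.6.

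Among the secreted class 3 genes, sites were frequent at Sema3a, the axon-repelling ligand of Nrp1, but only 1 was called widely. That site lay in the gene body at chromosome 5, 13526848 to 13527918, centred 131 kb past the only annotated start, and was called in 15 libraries. That start, at 13396784, lies inside the gene body, which begins at 13124822. RUNX1 was not called in CM +Dox replicate 1 and had rank 43.9 in replicate 2, against 78.8 and 89.0 in CM -Dox, 72.8 and 78.5 in Control +Dox, and 64.4 and 79.9 in Control -Dox libraries. CHD7 ranks were 4.36 and 52.2 in CM +Dox, 74.3 and 90.1 in CM -Dox, 82.9 and 84.3 in Control +Dox, and 77.5 and 67.5 in Control -Dox libraries. With each antibody the CM +Dox values were the lowest and did not overlap the other 6. For RUNX1 this is 1 value, from a list of 9710 peaks that was shorter than the other 6, so it does not show a change in binding. The CM +Dox CHD7 peaks were 200 and 213 bp wide, and those of the other CHD7 libraries were 381 to 776 bp wide, counting both peaks of Control -Dox replicate 1 (381 and 431 bp).

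The other 17 Sema3a sites were called with CHD7 alone, each in 1 or 2 libraries, and 14 in a single one. Sema3c (chromosome 5, 17574816 to 17730268), a ligand needed to divide the cardiac outflow tract, had 2 sites, both called in CM +Dox CHD7 replicate 1 alone, at rank 24.7. Sema3e (chromosome 5, 14025276 to 14256689), which binds Plxnd1 directly, had 3 CHD7 sites. The leading one (14253113 to 14253956) was called at rank 67.1 in CM +Dox replicate 1 and 51.8 in CM -Dox replicate 2. RUNX1 was called at none of the sites of Sema3c and Sema3e.

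Sema6b, a transmembrane ligand of Plxna4, had a CHD7 site at its internal start, at chromosome 17, 56132833 to 56134049. CHD7 ranks there were 87.2 and 60.0 in CM +Dox, 41.6 and 71.8 in CM -Dox, 34.8 and 55.9 in Control +Dox, and 17.9 with no call in the second library in Control -Dox. The CM +Dox ranks lay in the upper part of the range but overlapped CM -Dox. CM +Dox replicate 2 and CM -Dox replicate 2 each had a second, lower-ranked peak there, at ranks 46.6 and 33.5, so the 7 libraries gave 9 CHD7 peaks. Of these, 2 reached the printed window, 1 each in CM -Dox replicate 2 and Control +Dox replicate 2, and the rest lay inside the gene. RUNX1 was called there in CM +Dox replicate 1 alone, at rank 7.71, and that peak (56133848 to 56134049) covered most of the window.

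Sema6d, a ligand of Plxna1 with roles in heart development, had 7 sites over 578 kb of gene (chromosome 2, 124089943 to 124667789), each called in at most 2 libraries. The leading one (124573746 to 124574121) was called with CHD7 in both Control -Dox libraries, at ranks 61.3 and 50.9, and nowhere else. The RUNX1 site of the gene (124444285 to 124444511) was also called in both Control -Dox libraries alone, at ranks 41.2 and 22.9. Sema7a, which binds Plxnc1 and integrins, had 1 site (chromosome 9, 57956955 to 57957238). RUNX1 was called there in CM -Dox replicate 1 at rank 34.5, and CHD7 in CM -Dox replicate 2 at 62.1 and Control +Dox replicate 2 at 31.9.

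With induction of the fusion, RUNX1 calls at semaphorin genes were fewer, as they were across the genome. RUNX1 was called at 8 and 9 semaphorin sites in CM +Dox libraries, against 13 and 15 in CM -Dox, 16 and 12 in Control +Dox, and 15 and 14 in Control -Dox libraries. Both CM +Dox counts lay below the other 6. Of 8 semaphorin sites called in all 6 libraries without the fusion, 3 were lost (37.5%), those at Sema4d and Sema4b described above, beside 27.7% of 8436 such sites in the genome. Without the library with the mismatched tag, 4 of 9 were lost, beside 28.2%, the Sema4d site in Secisbp2 being added. A further 4 were called in both CM +Dox libraries (50.0%), beside 56.9%, and the Sema3a site was called in 1. Gained RUNX1 sites, which both CM +Dox libraries and no other library of the antibody called, numbered 0 of 6, beside 2.60%. These shares rest on few sites, lie near the background and are no result about the family. When each RUNX1 list was cut to its top 8140 peaks, 1 of 5 sites was lost, the Sema4d site at +1.50 kb, beside 23.9% of all sites. On those lists 2 of 6 counted as gained, the Sema4c site in the gene body and the site over Ttll13, beside 14.3%.

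Control -Dox libraries agreed on 12 semaphorin RUNX1 sites, and of these the CM +Dox libraries called 33.3% and 50.0%, a mean of 41.7% ± 11.8 (SD, n = 2). CM -Dox libraries called 66.7% and 83.3% of them, and Control +Dox libraries 91.7% and 83.3%. Over the 11282 such sites of the genome the shares were 51.4% and 59.7% in CM +Dox, 86.2% and 91.0% in CM -Dox, and 89.9% and 90.1% in Control +Dox libraries. CM +Dox shares were the lowest both at the semaphorin genes, where 1 site is worth 8.33 percentage points, and over the genome. Without the Control -Dox library with the mismatched tag, 14 semaphorin sites formed the baseline. CM +Dox libraries called 35.7% and 50.0% of them, a mean of 42.9%, against 64.3% and 78.6% in CM -Dox and 85.7% and 78.6% in Control +Dox libraries. With equal lists the mean CM +Dox share was 64.3% of 7 sites, beside 61.9% of all. The shares of CM -Dox and Control +Dox libraries were not computed on equal lists.

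**Figure D4:**
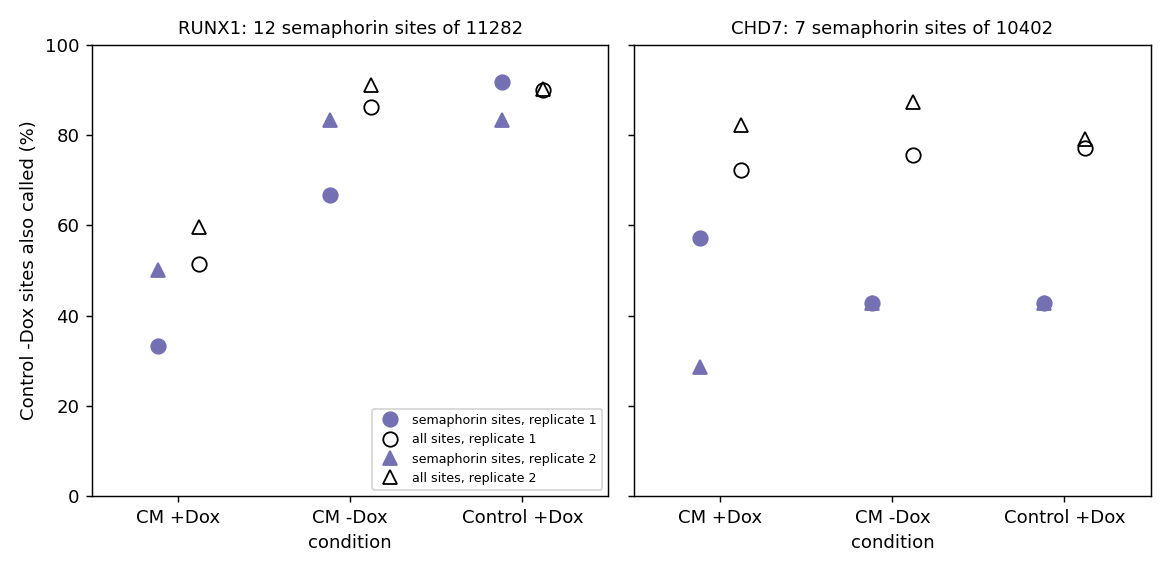
Each point is the percentage of the sites called in both Control -Dox libraries that a library also called, with filled points for semaphorin sites and open points for all sites. The left panel shows RUNX1 and the right panel CHD7. For RUNX1 the CM +Dox points lie lowest for both kinds of site, and for CHD7 all semaphorin points lie between 28.6% and 57.1%, below the points for all sites.

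CHD7 calls at semaphorin genes varied more between replicates than between conditions. CHD7 was called at 19 and 9 semaphorin sites in CM +Dox, 7 and 16 in CM -Dox, 7 and 20 in Control +Dox, and 10 and 15 in Control -Dox libraries. Of the 2 sites called in all 6 CHD7 libraries without the fusion, the leading sites of Sema4d and Sema3a, 0 were lost (3.65% of 5781 in the genome) and both were called in both CM +Dox libraries (84.1%). Of 3 sites called in both CM +Dox CHD7 libraries, 0 were gained, beside 8.24%. With every CHD7 list cut to its top 16323 peaks, 0 of 2 sites were lost, beside 7.79%, and 0 of 2 gained, beside 6.46%. Both replicates of at least 1 condition called CHD7 at 5 of the 10 genes, Sema3a, Sema4b, Sema4d, Sema6b and Sema6d, beside 52.1% of all protein-coding genes. The same held for RUNX1 at 5 of 10, Sema3a, Sema4b, Sema4c, Sema4d and Sema6d, beside 50.3%. Control -Dox libraries agreed on 7 CHD7 sites, and of these the CM +Dox libraries called 57.1% and 28.6%, and all CM -Dox and Control +Dox libraries 42.9%. Over the genome those shares were 72.2% and 82.3% in CM +Dox, 75.6% and 87.2% in CM -Dox, and 77.2% and 79.1% in Control +Dox libraries. The semaphorin shares were lower in every library, with 1 site worth 14.3 percentage points.

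Pairs of conditions were also compared directly, taking a site as down where both libraries of the second condition and neither of the first called it, and as up in the opposite case. These comparisons share libraries and are not independent. For RUNX1 in CM +Dox against CM -Dox, 5 of 11 sites were down, beside 35.0% of all: the lost Sema4b and Sema4d sites, the nearer upstream Sema4b site and the Sema4d site in Secisbp2. In CM +Dox against Control +Dox, 5 of 11 were again down, beside 34.8%, with the Sema4b site next to its leading site in place of the nearer upstream one. The Sema4c site in the gene body was the 1 of 6 sites that was up in each, beside 6.01% of all sites for the first and 8.85% for the second. No test was made of these shares, which rest on 11 and 6 sites.

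Between conditions without the induced fusion, few RUNX1 calls at the semaphorin genes differed. In CM -Dox against Control -Dox, 2 of 12 sites were down, beside 7.01%, the internal Sema4b promoter and the Sema6d site, and 0 of 11 were up, beside 9.36%. In Control +Dox against Control -Dox, 1 of 12 was down, beside 3.08%, again the Sema6d site, and 0 of 11 were up, beside 1.28%. These comparisons rest on the library with the mismatched tag. Against the remaining Control -Dox library alone, CM -Dox had 3 of 14 sites down, beside 12.6%, and 2 of 11 up, beside 16.6%. Control +Dox then had 2 of 14 down, beside 9.87%, and 0 of 11 up, beside 5.61%. The Sema4c site in the gene body was the addition to the sites that were down in each, and the nearer upstream Sema4b site and the site over Ttll13 were those up in CM -Dox.

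For CHD7, the Sema4d site in Secisbp2 was the 1 of 7 sites down in CM +Dox against CM -Dox, beside 10.8%, and 0 of 3 were up, beside 15.1%. In CM +Dox against Control +Dox, 1 of 4 was down, beside 12.5%, a Sema6d site at 124605243 to 124605619, and 0 of 3 were up, beside 27.3%. In CM -Dox against Control -Dox, 4 of 7 were down, beside 8.91%, namely the leading Sema4b site, a Sema3a site at 13505937 to 13506456 and the Sema6d sites at 124298791 to 124299187 and 124573746 to 124574121. None of 7 was up, beside 18.8%. The same Sema3a and Sema6d sites were the 3 of 7 that were down in Control +Dox against Control -Dox, beside 9.72%, and 1 of 4 was up, beside 9.45%, the Sema6d site at 124605243. Both comparisons use the Control -Dox libraries. The 3 shared sites were called in no library but those 2, at ranks from 4.99 to 61.3.

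Genes of the wider pathway were read the same way, counting a gene where a site in its window was called in both replicates of a condition. Over all 21883 protein-coding genes, RUNX1 was so called at 34.0% in CM +Dox, 44.7% in CM -Dox, 40.4% in Control +Dox and 43.1% in Control -Dox cells. CHD7 was so called at 42.5% in CM +Dox, 40.2% in CM -Dox, 36.5% in Control +Dox and 37.8% in Control -Dox cells. Among the 10 genes described above, RUNX1 was called at 3 in CM +Dox, 3 in CM -Dox, 4 in Control +Dox and 5 in Control -Dox cells, and CHD7 at 3, 4, 4 and 4 in the same order. Among the 10 other semaphorins, RUNX1 was called at 6 genes and CHD7 at 5 in each of the 4 conditions. The leading sites in the windows of Sema4f, Sema4g and Sema5a were called in all 16 libraries, at mean ranks of 92.2, 46.6 and 90.1. Whether the named sites of the other semaphorins and receptors lie in their gene or over a neighbour was not determined. RUNX1 was lost at 1 of 9 sites of the other semaphorins, in the window of Sema5b, beside 27.7% over all sites. Among 11 plexin and neuropilin receptors, RUNX1 was called at 2 genes in CM +Dox, 6 in CM -Dox, 4 in Control +Dox and 4 in Control -Dox cells. CHD7 was called at 6, 6, 3 and 3 of them in the same order. RUNX1 was lost at 1 of 6 receptor sites, in Plxna4, beside the same 27.7%, and the most widely called receptor sites were in Nrp1 (14 libraries), Plxna4 (13) and Plxnd1 (11). Without the library with the mismatched tag, lost sites of these lists were again 1 of 9 and 1 of 6, beside 28.2%. By the Control -Dox library left, RUNX1 was called at 5 of the 10 genes described above, 6 of the 10 other semaphorins and 4 of the 11 receptors, beside 46.2% of all genes. Sites of any kind were common, at 74.9% of all genes, and 9.66% had one in all 16 libraries.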

How the data were processed

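ChIP-seq peak lists of RUNX1 and CHD7 from 416B cells were used, 1 list per library and 2 libraries per condition and antibody. Per the submitters' processing notes, the authors used Bowtie2 2.0.6 and MACS2 2.0.10 on mm10. Peak scores deposited by the authors are −log10 p-values, a reading checked against the thresholds in the peak names. Neither the background library nor filters or read depth is named in the sources used here. The members and lists were chosen with earlier results of these data known, so no p-value was computed.

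Autosomal, X and Y peaks were merged across the 16 lists where they overlapped by 1 bp or more. A library called a site if it had a peak there. Scores were turned into percentile ranks within each list, and a site with several peaks of a library took the highest. Coordinates are 1-based on mm10, and genes and promoter windows came from RefSeq tables of GRCm38.p6, with all members and listed genes matched by symbol. Sites named are, for each member, the one called in most libraries, every lost or gained site, and sites in all 16 libraries. For the other semaphorins and receptors, up to 3 genes a list were named by how widely their leading site was called. Sites named beyond these, the ETS letters and the choice of printed promoters were chosen after their values were seen. Alternatives were the strictest RUNX1 threshold, equal list lengths, a 5 kb window, an overlap of at least 0.5 of the shorter peak, merging per antibody and leaving out each library. RUNX1 values without the library whose tag is mismatched were added after seeing the data. The merging and calling steps were checked on simulated lists of well separated sites, which cannot test closely spaced sites such as those at Sema4d. Python 3.11.15, numpy 2.4.6 and pandas 2.3.3 were used.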

Additional observations from a re-analysis of the deposited data

How the results depend on the processing

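The largest change in RUNX1 values came from giving every list of an antibody the same number of peaks: lost RUNX1 sites at the semaphorin genes were then 1, gained RUNX1 sites 2, and the CM +Dox share of Control -Dox sites 64.3%, against 3, 0 and 41.7% on the lists as deposited. Leaving out each of the 16 libraries in turn gave 3 to 4 lost and 0 to 1 gained RUNX1 sites, 0 lost CHD7 sites, 0 to 9 gained CHD7 sites, 1 to 2 sites in all libraries, 13 to 16 sites with both antibodies, shares of 33.3% to 50.0%, and a mean rank of 97.3 to 97.7 for the leading Sema4d site. Lost RUNX1 sites were 4 without CM +Dox replicate 2, without CM -Dox replicate 1 or without Control -Dox replicate 1. Gained RUNX1 sites were 1 without CM +Dox replicate 1, without CM +Dox replicate 2 or without Control -Dox replicate 2. Gained CHD7 sites were 3 without CM +Dox CHD7 replicate 1 and 9 without replicate 2, where single calls of the remaining library count. Sites in all libraries were 2 without CM +Dox RUNX1 replicate 1, the second being the Sema3a site. With the strictest threshold, an overlap of 0.5 or merging per antibody, 3 RUNX1 sites were lost, and with a 5 kb window 2. Sites with both antibodies, 16 on the lists as deposited, were 11 with equal lists, 11 with a 5 kb window and 13 with an overlap of 0.5.

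No paired analysis was possible because no result came from a test. Depth is unknown, so a missing call says that no peak passed a list's threshold and not that the protein was absent. Lists of different lengths and thresholds were compared, and few semaphorin sites stand behind each share kept from Control -Dox cells.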

Other observations

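Downstream of the receptors, RUNX1 was called in both replicates at 7 of 14 semaphorin signalling genes in CM +Dox cells, 7 in CM -Dox, 9 in Control +Dox and 9 in Control -Dox cells, and CHD7 at 7, 7, 6 and 6 in the same order. Over all protein-coding genes the shares were 34.0%, 44.7%, 40.4% and 43.1% for RUNX1 and 42.5%, 40.2%, 36.5% and 37.8% for CHD7 in that order. RUNX1 was lost at 2 of 11 sites called in all 6 libraries without the fusion, in Rras, a small GTPase acting below plexins, and in Farp2, a Rac exchange factor, beside 27.7% of all such sites. Without the Control -Dox RUNX1 library whose tag goes against its label it was again 2 of 11, beside 28.2%, and the library left called RUNX1 at 10 of the 14 genes, beside 46.2% of all genes. Mical1, an oxidoreductase that takes actin filaments apart, had a site in all 16 libraries with a mean rank of 65.4. The leading site of Rhoa was called in 15 libraries and that of Rac1 in 14. The leading site of Arhgef12 was called in 11 libraries, 8 of them RUNX1, at a mean rank of 94.9. Among 6 other receptors and partners, RUNX1 was called in both replicates at 1 gene in each condition, and CHD7 at 4 in CM +Dox, 2 in CM -Dox, 2 in Control +Dox and 4 in Control -Dox cells, to be read against the same shares. By the Control -Dox library left, RUNX1 was called at 1 of the 6. Their most widely called sites were in Itga1 (15 libraries), Itgb1 (9) and Cd72 (9). In the window of Plxnb2, the receptor of Sema4c, the leading site (chromosome 15, 89195850 to 89196815) had CHD7 calls in all 8 libraries. Their mean rank was 99.8, and no RUNX1 library called the site. Whether it lies in Plxnb2 or over a neighbouring gene was not determined, nor for the other sites named in this paragraph.

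The genes whose best ranks over the 16 libraries were most like those of Sema4d were found by mean absolute difference among 21882 others. They were Cops4 at 0.688 percentile points, Tram1 at 0.706, Srp68 at 0.846, Camkk1 at 0.946 and, through a shared site, Psmb3 and Pip4k2b at 1.05. Ranks near 100 in every list leave little room for difference.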
